A study of Mus musculus with 5 samples.

Results

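The core circadian clock and its PAR bZIP output were followed through 10 genes, chosen by name: Arntl (also called Bmal1), Clock, Npas2, Per2, Per3, Cry2, Nr1d1, Nr1d2, Dbp and Tef. All 10 were found among the 35275 gene identifiers of the table by way of the mouse annotation. The RNA came from gastrocnemius, a mainly fast-twitch calf muscle, of female NSG mice at 12 weeks of age, an immunodeficient strain (NOD scid gamma), with the genotype labelled Wild Type. Every mouse had received extracellular vesicles of MCF-10A/miR122 cells, as labelled, through the tail vein, about 10 µg per injection and 10 injections over 5 weeks, and was sampled 2 days later. MCF-10A cells are a human breast epithelial line that does not form tumours. The labels give 5 samples in 1 group, called libraries 1 to 5 here, so levels and the spread between libraries are described, with no untreated library beside them. Whether each number is a separate animal is not stated, nor is the time of day at which muscle was taken. Any p-value below, whether of spread or of a ratio between genes, therefore refers to these samples, and the spread between them may be technical.

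The mammalian clock is a feedback loop of transcription. Arntl pairs with Clock or with its relative Npas2 and activates genes through E-boxes, among them the Period (Per) and Cryptochrome (Cry) genes, whose proteins enter the nucleus and inhibit that activator. The activator also drives Nr1d1 and Nr1d2, the nuclear receptors REV-ERB alpha and beta, which repress Arntl through RORE sites at which the ROR receptors activate. Dbp and Tef are PAR bZIP factors that act on D-boxes and carry the rhythm to output genes, and skeletal muscle runs such a clock in its fibres.

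The promoter stretches below are shown because they hold the letters of the motifs named above for 5 members. They come from RefSeq windows of GRCm38.p6, each 300 bases long with 250 bases before a transcription start, of which 13 windows cover 9 members. The motifs searched on both strands were the E-box CACGTG, the D-box TTANGTAA and the RORE core TAGGTCA, and the E-box variant CACGTT was added after the windows had been read. None of the motifs overlapped another in the stretches printed. Capitals mark a motif match, positions are counted from the start of transcription, and a match on the opposite strand appears as its reverse complement.
Per3 upstream of the start (chr4:151044666-151044915, minus strand): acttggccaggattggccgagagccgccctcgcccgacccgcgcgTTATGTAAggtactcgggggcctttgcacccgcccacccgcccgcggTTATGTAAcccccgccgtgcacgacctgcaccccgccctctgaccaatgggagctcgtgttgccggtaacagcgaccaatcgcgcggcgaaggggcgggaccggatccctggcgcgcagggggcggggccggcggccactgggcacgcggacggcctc
Nr1d1 upstream of the start (chr11:98775378-98775627, minus strand): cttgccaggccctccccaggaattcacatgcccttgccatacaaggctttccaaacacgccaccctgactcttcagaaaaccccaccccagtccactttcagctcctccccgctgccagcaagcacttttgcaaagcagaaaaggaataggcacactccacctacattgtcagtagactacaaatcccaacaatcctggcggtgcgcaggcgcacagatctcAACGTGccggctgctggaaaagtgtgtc
Cry2 upstream of the start (chr2:92434070-92434319, minus strand): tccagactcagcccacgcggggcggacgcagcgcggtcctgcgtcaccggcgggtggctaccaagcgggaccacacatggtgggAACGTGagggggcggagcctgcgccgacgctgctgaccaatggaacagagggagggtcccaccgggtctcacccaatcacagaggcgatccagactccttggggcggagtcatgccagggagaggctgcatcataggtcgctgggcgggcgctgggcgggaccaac
Tef around an E-box before its first start (chr15:81802535-81802562, plus strand): tgctgtggctcCACGTGctgcagctggc
Tef around an E-box before its second start (chr15:81811265-81811292, plus strand): acctggcccagCACGTGtctacatcgtt
Arntl around a RORE core behind a start (chr7:113207530-113207558, plus strand): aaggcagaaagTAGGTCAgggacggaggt
Per3 held 2 D-boxes, which began at -205 and -158, and a D-box was found in 2.32% of all 32851 windows of the same length. Each Tef window held 1 E-box, at -127 and -138, against 7.15% of all windows. These positions count from RefSeq starts, and both E-boxes lay within the Tef gene of the GENCODE annotation, which begins at 81802421. The stretch of the first overlapped 2 GENCODE exons and that of the second 0. In Nr1d1 the E-box variant began at -28 and in Cry2 at -166, both on the opposite strand, and 4.68% of all windows held it. One of the Arntl windows held a RORE core at 31 behind the start, a motif present in 2.61% of all windows. These are matches of letters in short windows and were not tested as binding sites.

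The 5 libraries held 16674504 to 25407988 reads. Levels are given in FPKM, that is reads per kilobase of a gene's exons, not of its genomic span, and per 1000000 library reads. Library 3 stood apart, with a Pearson's r across genes of 0.961 to 0.970 to the other libraries, against 0.981 to 0.988 for the other pairs. These are descriptions across genes, which are not independent of each other. All 5 markers of the skeletal muscle fibre were measured, with a summed level of 57028 to 80795 FPKM. All 4 macrophage markers were highest in library 3 (summed level 298 FPKM, against 73.6 to 96.3 elsewhere), as were all 4 markers of regenerating muscle (98.9 against 9.88 to 17.8). All 4 slow fibre markers were highest in library 2 (2641 FPKM, against 829 to 1113). The part of these differences in the values below was not tested, and in bulk muscle more or fewer cells of a type cannot be told apart from more or less RNA per cell.

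The 3 activator genes had the lowest mean levels of the members. Arntl, the required partner of the activating pair (chromosome 7, 113207465 to 113314126), was at 2.79, 3.01, 1.45, 2.01 and 2.06 FPKM in libraries 1 to 5, a mean of 2.26 ± 0.635 (SD, n = 5). Libraries 1 and 2 were high and library 3 was low, a 2.08-fold range. Clock, the partner that also acts as a histone acetyltransferase (chromosome 5, 76209868 to 76304792), was at 2.04, 2.13, 1.78, 1.60 and 2.31 FPKM, a mean of 1.97 ± 0.281. It was among the steadiest members, with a 1.44-fold range and no library far from the rest. Npas2, the relative of Clock that is known as its stand-in in the forebrain (chromosome 1, 39193731 to 39363236), was at 0.155, 0.331, 0.227, 0.139 and 0.0744 FPKM. That corresponds to 15, 26, 16, 14 and 8 reads, so its 4.46-fold range rests on few reads.

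Of the inhibitory members, Cry2 was measured at a higher level than Per2 and Per3 in each library. Per1, a period gene that is not a member, was at 12.7 FPKM in library 1 and at 28.9 to 38.1 FPKM in the other libraries. Per2, the period gene whose loss weakens rhythms in mice (chromosome 1, 91415982 to 91459324), was at 2.42, 2.35, 2.77, 1.89 and 3.78 FPKM, a mean of 2.64 ± 0.708 (SD, n = 5). Library 5 was high and library 4 was low. Per3, a period gene that is dispensable for the loop itself (chromosome 4, 151003652 to 151044665), was at 5.75, 3.89, 2.68, 2.92 and 3.53 FPKM, a mean of 3.76 ± 1.22. Library 1 lay above the others, and library 3 was low. Cry2, a cryptochrome that inhibits the activating pair (chromosome 2, 92403646 to 92434043), was at 13.8, 15.9, 14.2, 10.3 and 11.5 FPKM, a mean of 13.2 ± 2.24. It was lowest in libraries 4 and 5, and its SD on the log2(FPKM + 1) scale, 0.23, was 0.13 after the libraries were scaled by median-of-ratios.

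**Figure D1:**
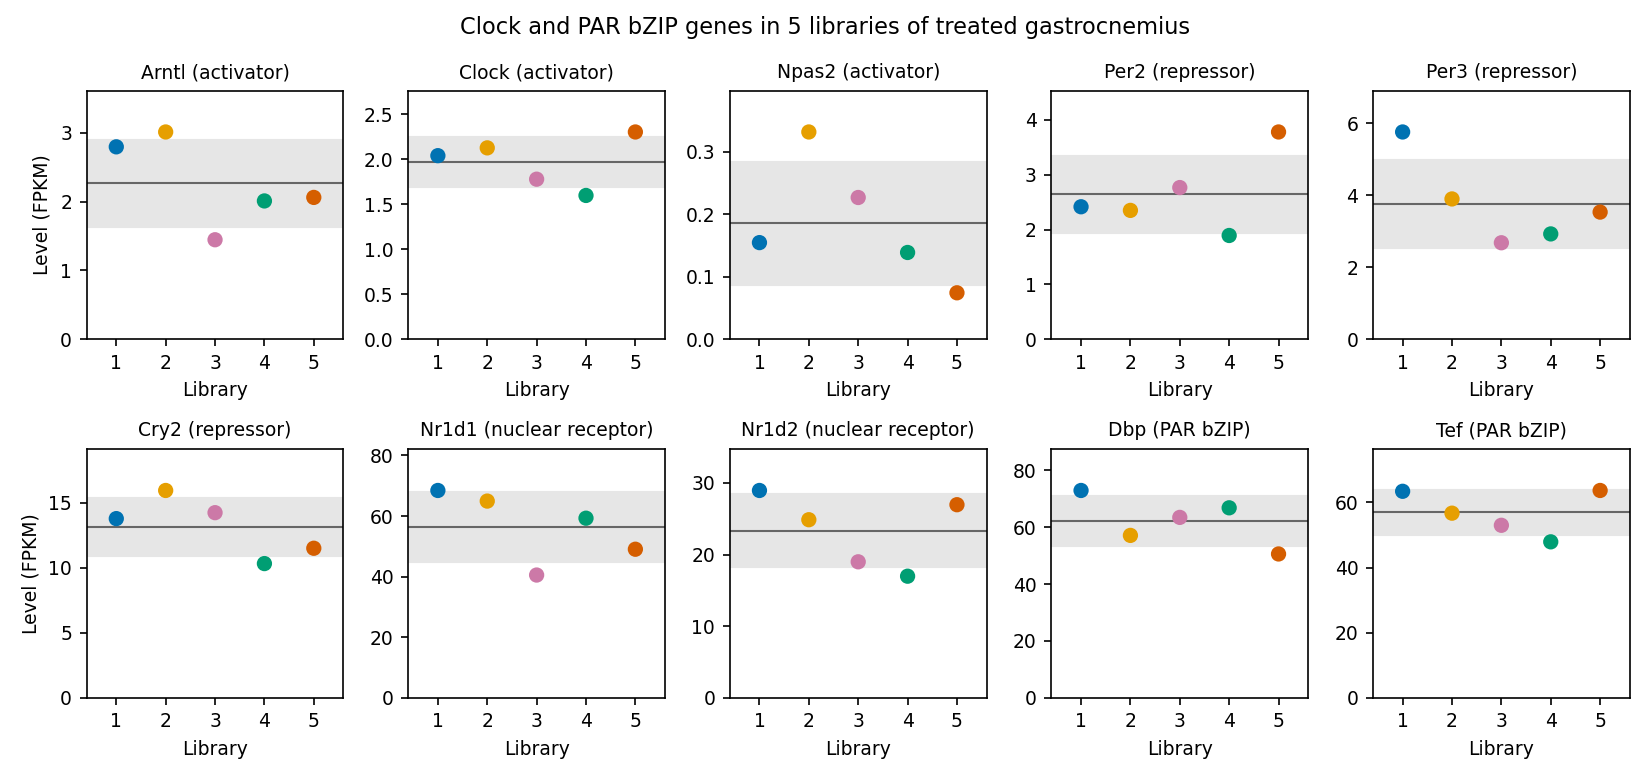
Level in FPKM (vertical axis, from 0) of each of the 10 members in libraries 1 to 5 (horizontal axis); each point is 1 library, the line is the mean and the grey band is the mean ± SD over 5 libraries. Per3 stands highest in library 1 at 5.75 FPKM and Per2 in library 5 at 3.78 FPKM, while Nr1d1 and Arntl are lowest in library 3.

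The REV-ERB genes were measured at levels well above that of Arntl, the gene they repress. Nr1d1 (chromosome 11, 98767932 to 98775333) was at 68.4, 64.9, 40.5, 59.3 and 49.0 FPKM, a mean of 56.5 ± 11.5 (SD, n = 5). Library 3 was lowest and libraries 1 and 2 were highest, the same ends as for Arntl, although after scaling library 4 was highest. Nr1d2 (chromosome 14, 18204054 to 18239127) was at 28.9, 24.9, 19.0, 17.0 and 27.0 FPKM, a mean of 23.3 ± 5.15. Here libraries 3 and 4 were low, and library 5, which was below the mean for Nr1d1, was among the high ones.

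The PAR bZIP genes were, with Nr1d1, the most abundant members. Dbp, the D-box binding factor with a deep daily rhythm in many tissues (chromosome 7, 45705088 to 45710203), was at 73.0, 57.2, 63.5, 66.9 and 50.6 FPKM, a mean of 62.2 ± 8.64 (SD, n = 5). Library 1 was highest and library 5 lowest, a 1.44-fold range. Tef, thyrotroph embryonic factor (chromosome 15, 81802421 to 81826863), was at 63.4, 56.7, 53.0, 47.9 and 63.7 FPKM, a mean of 56.9 ± 6.80. Libraries 1 and 5 were nearly equal at the top and library 4 was lowest, so that in FPKM as deposited library 5 was highest for Tef and lowest for Dbp. After median-of-ratios scaling, Dbp was lowest in library 2, at 53.4 against 54.1 scaled FPKM in library 5.

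Ordered by mean level, the members ran Dbp, Tef, Nr1d1, Nr1d2, Cry2, Per3, Per2, Arntl, Clock and Npas2. The steps from Nr1d1 to Nr1d2, from Nr1d2 to Cry2, from Cry2 to Per3 and from Clock to Npas2 kept their direction in 5 of 5 libraries. The other neighbours changed places between libraries. Dbp lay above Tef in 4 of 5 libraries, Per3 above Per2 in 3 and Arntl above Clock in 3. Tef lay above Nr1d1 in 2 and Per2 above Arntl in 2. In each of these pairs the mean difference of log2(FPKM + 1) was smaller than its SD, so their order was not settled. Among the 10710 genes with a mean of at least 1 FPKM, Dbp stood at percentile 92.4 of level and Clock at 17.6.

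All 10 members varied between libraries by more than counting error, as did 87.9% of the 10711 genes tested (chi-square test of the reads behind the FPKM values, Benjamini-Hochberg adjusted over all genes). A count this near the background says nothing particular about clock genes. The adjusted p was 0.00091 for Npas2, whose call was lost without library 2, and at most 2.48e-05 for each other member. The coefficient of variation (CV) of the 9 members at 1 FPKM or more was 11.9% for Tef to 32.4% for Per3, with a median of 20.4%, against a median of 16.3% over all genes tested. Counting error alone gave a CV of 1.37% for Tef, 4.56% for Per3 and 25.4% for Npas2, from 3888 to 7120, 268 to 791 and 8 to 26 reads per library. Set against genes of the same level, no member spread more than the trend at an adjusted p of 0.05 in limma, and 0% of genes did, with 0 of 9 members and 616 of 10710 genes at an unadjusted p under 0.05. With voom weights on the recovered reads 0 genes passed as well, and 580 were at an unadjusted p under 0.05. The limma test on log2(FPKM + 1) could call few genes, since the trend and its 3.93 degrees of freedom came from the same genes. Timp1, at 66.5 times the variance of the trend, had an adjusted limma p of 0.640. That no member passed therefore says little about the members. The variance of a member was 0.45 times the trend for Clock and 3.11 times for Per3, with a median of 1.78 over the 9 members and 0.967 over all genes tested.

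**Figure D2:**
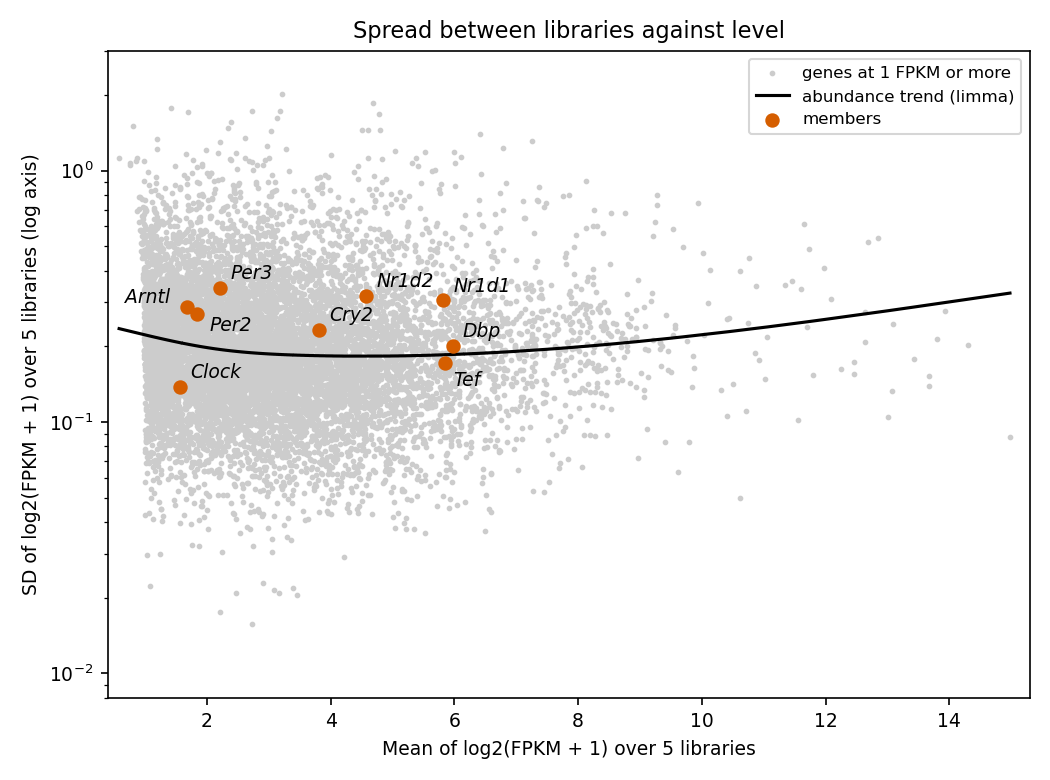
SD of log2(FPKM + 1) over 5 libraries (vertical log axis) against the mean of log2(FPKM + 1) (horizontal axis); grey points are the 10710 genes at 1 FPKM or more, the line is limma's abundance trend and orange points are the 9 members that pass the filter. Per3, Nr1d2 and Nr1d1 lie above the line at SDs of 0.34, 0.32 and 0.31, and Clock lies below it at 0.14.

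Ratios between members within a library do not depend on how libraries are scaled, apart from the pseudocount of 1 added before the logarithm. Arntl lay below its repressor Nr1d1 in each library. The log2 ratio was -4.19, -4.04, -4.09, -4.32 and -4.03 in libraries 1 to 5, a mean of -4.14 ± 0.12 (SD, n = 5). In FPKM, Arntl was at 4.08%, 4.63%, 3.57%, 3.39% and 4.20% of Nr1d1. A pseudocount of 1 compresses the low levels of Arntl, so the log2 values spread less and order the libraries otherwise. In FPKM library 3 lay below library 1, and library 2 rather than library 5 was highest. Against Dbp the log2 ratio was less steady, at -4.29 ± 0.34, from -4.72 in library 3 to -3.86 in library 2. Whether these ratios differed in spread was not tested.

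Within the activator genes, Arntl and Clock were at similar levels, with a log2 ratio of 0.12 ± 0.25 that was above 0 in 3 of 5 libraries (p = 0.3125, exact two-sided sign-flip permutation test). Npas2 lay below Clock by -1.32 ± 0.19 and Arntl above Npas2 by 1.44 ± 0.28, each in 5 of 5 libraries. In FPKM, Npas2 was at 3.23% to 15.6% of Clock, a wider gap than the log2 values show, since a pseudocount of 1 exceeds the level of Npas2.

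Among inhibitors and outputs, the balance between relatives shifted from library to library. Per2 was at 42.0%, 60.3%, 103%, 64.7% and 107% of Per3 in libraries 1 to 5, so Per3 was the higher gene in libraries 1, 2 and 4. The log2 ratio of Per2 over Per3 was -0.37 ± 0.44 (p = 0.25, exact sign-flip permutation test). Dbp was at 115%, 101%, 120%, 140% and 79.5% of Tef, with Tef the higher gene in library 5, and a log2 ratio of 0.12 ± 0.30 (p = 0.4375, exact sign-flip permutation test). Nr1d1 exceeded Nr1d2 in 5 of 5 libraries, by 1.24 ± 0.34, from 0.84 in library 5 to 1.75 in library 4. Cry2 exceeded Per2 in 5 of 5, by 1.97 ± 0.35, from 1.39 in library 5 to 2.34 in library 2. For the 6 of 9 pairs that kept 1 direction the exact test gave p = 0.0625, the smallest that 5 libraries allow, or 0.09375 after Benjamini-Hochberg adjustment over the 9 pairs, so none could pass 0.05.

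A further 6 pairs were chosen after the values were seen and are given with no test. Per2 was at 3.31%, 4.11%, 4.36%, 2.83% and 7.46% of Dbp in libraries 1 to 5, so that library 5 held the most Per2 per Dbp and library 4 the least. Per2 was at 6.82% and 7.70% of Nr1d1 in libraries 3 and 5, against 3.19% to 3.62% in the other libraries. Per2 exceeded Arntl in libraries 3 and 5, at 191% and 183% of it, and lay below it at 78.1% to 94.2% in libraries 1, 2 and 4. Library 1 had the lowest ratios of Per2 to Nr1d2 (8.35%) and to Tef (3.81%). Nr1d1 was at 63.8% of Dbp in library 3 and at 88.7% to 114% of it in the others.

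**Figure D3:**
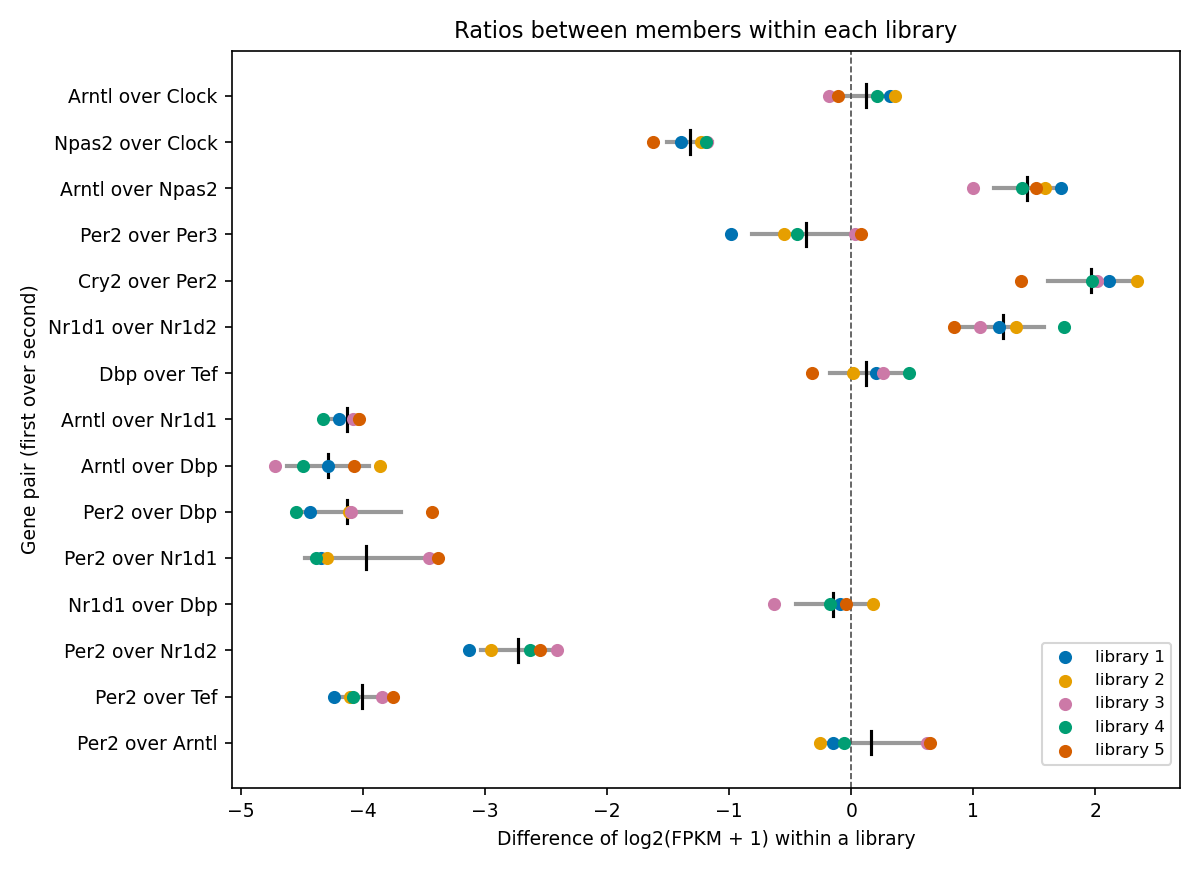
Difference of log2(FPKM + 1) within a library (horizontal axis) for 15 pairs of members (vertical axis, first gene over second), the upper 9 fixed and the lower 6 chosen after the values were seen; points are libraries 1 to 5, the tick is the mean and the grey bar is the mean ± SD. Arntl over Nr1d1 lies within -4.32 to -4.03, while Per2 over Per3 runs from -0.98 in library 1 to 0.08 in library 5.

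Of 15 other clock genes, 13 were at 1 FPKM or more, and 10 of the 13 varied beyond counting error, against 87.9% of all genes tested. The widest among them were Per1, Nfil3 and Ciart. Per1, the period gene that also responds acutely to hormones and light, was at 12.7, 28.9, 32.2, 29.2 and 38.1 FPKM in libraries 1 to 5, with library 1 low, where Per3 was highest. Nfil3, a bZIP repressor that competes with Dbp and Tef for D-boxes, was at 2.91, 4.95, 7.07, 9.07 and 11.3 FPKM, lowest in library 1 and highest in library 5. In FPKM as deposited, Dbp had the opposite ends. Ciart, a repressor of the activating pair, was at 7.42, 7.32, 8.35, 13.9 and 14.6 FPKM, with libraries 4 and 5 above the others.

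Per1 and Nfil3 spread 10.3 and 12.1 times the variance of the trend, at an unadjusted limma p of 0.023 and 0.017, but an adjusted p of 0.764 and 0.732. The E-box repressors Bhlhe40 and Bhlhe41 were at 62.6 ± 9.51 and 12.5 ± 1.72 FPKM (SD, n = 5), with Bhlhe40 lowest in library 1. The ROR receptor gene Rora, whose product activates at the sites where REV-ERBs repress, was at 4.13 ± 0.661 FPKM, lowest in library 3 as Nr1d1 and Arntl were. Hlf, the third PAR bZIP gene, ranged from 1.73 to 2.92 FPKM and, like Tef in FPKM as deposited, was lowest in library 4.

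Of the 13 other clock genes at 1 FPKM or more, Btrc, Csnk1e and Cry1 had the smallest CVs, at 4.36% to 5.63%. Cry1 was at 3.49 ± 0.197 FPKM (SD, n = 5), with a CV of 5.63% against 6.72% from counting error, and did not pass the chi-square test of the difference between libraries. Neither did the ubiquitin ligase subunit Btrc, at 4.03 ± 0.176 FPKM, nor the kinase Csnk1e, at 11.8 ± 0.589 FPKM, which passed it after either scaling. The kinase Csnk1d was at 20.2 ± 1.65 FPKM. Fbxw11, which takes part in the breakdown of period proteins, was at 12.3 ± 1.04 FPKM, and Timeless at 1.47 ± 0.259 FPKM, with a CV of 17.6%. Rorb and Fbxl21 were below 1 FPKM, at 0 to 0.0563 and 0 to 0.0615 FPKM.

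All 12 genes of a list reported as clock-controlled were at 1 FPKM or more and varied beyond counting error, against 87.9% of all genes tested. In FPKM as deposited 5 of the 12 were highest in library 5, against 7.68% of all genes tested. After median-of-ratios scaling that share of all genes tested was 18.8%, and Usp2, Wee1, Nampt, Tsc22d3, Coq10b and Hk2 of the list were highest in library 5. Coq10b, which encodes a coenzyme Q binding protein, was at 5.89, 9.17, 9.65, 10.4 and 18.8 FPKM in libraries 1 to 5, and Tsc22d3, a glucocorticoid-induced gene, at 35.5, 66.5, 51.6, 75.7 and 96.3 FPKM. Both were lowest in library 1 and highest in library 5, as Per1 and Nfil3 were. Wee1, a cell cycle kinase, was at 1.73, 1.45, 2.94, 1.82 and 4.06 FPKM, with library 5 highest as for Per2. Usp2, a deubiquitinase, spanned less, from 61.3 FPKM in library 1 to 81.4 in library 5.

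The metabolic genes of that list had other ends. Pdk4, which restrains glucose oxidation, was at 75.3, 112, 44.8, 133 and 97.7 FPKM, lowest in library 3 and highest in library 4, and the mitochondrial carrier gene Ucp3 had the same ends, at 30.8 and 68.0 FPKM. Lpl and the sarcomere gene Tcap were highest in library 2, at 243 and 3371 FPKM, and lowest in library 3, at 112 and 1817 FPKM, although Tcap was highest in library 4 after either scaling. Hexokinase Hk2 was at 65.6 ± 8.43 FPKM, Nampt at 22.6 ± 2.33, Por at 14.1 ± 3.23 and Tspan4 at 10.7 ± 1.76 (SD, n = 5). Of the 12, Pdk4, Tsc22d3 and Coq10b were at an unadjusted limma p under 0.05, and none passed after adjustment.

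**Figure D4:**
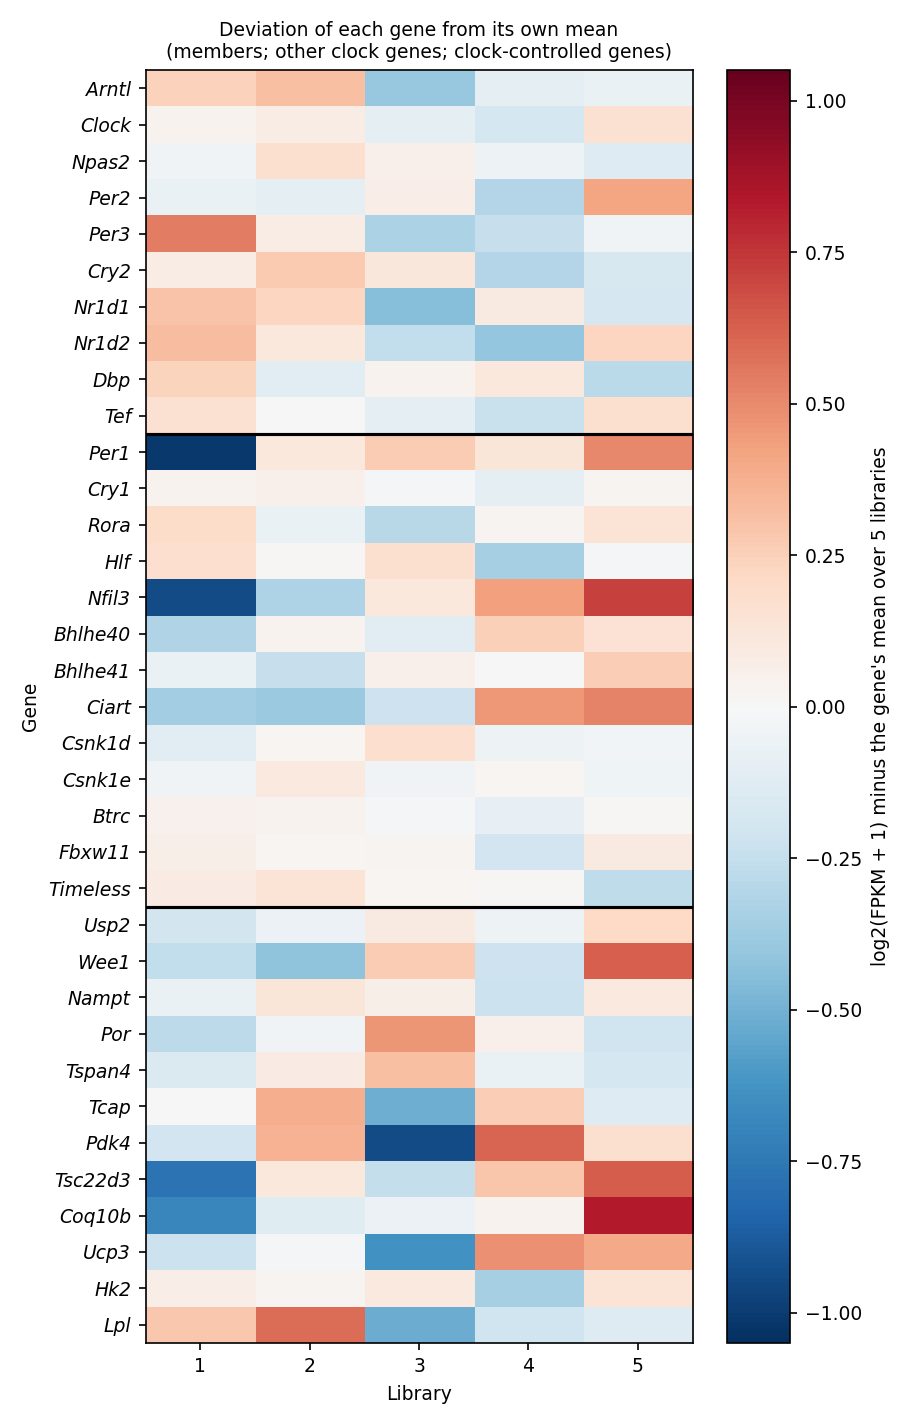
Value of log2(FPKM + 1) minus the gene's own mean over 5 libraries (colour) for the 10 members, 13 other clock genes and 12 clock-controlled genes (vertical axis, separated by lines) in libraries 1 to 5 (horizontal axis). Per1 and Nfil3 lie at -1.01 and -0.94 in library 1, where Per3 lies at 0.54 and Dbp at 0.24.

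The genes whose profile over the 5 libraries lay nearest to that of 3 members were found by the root mean square difference of log2(FPKM + 1) after each gene's mean was removed. Nearest to Arntl was Adk, at 42.0, 46.7, 27.3, 31.6 and 34.4 FPKM (difference 0.044), followed by Pde4c, Mtx3, Cyp4f13 and Parp8 at 0.049 to 0.054. Nearest to Dbp was Dexi, at 15.1, 11.6, 12.9, 14.1 and 10.8 FPKM (difference 0.031), followed by Selenoh, Unc119, Ccdc85b and Stoml1 at 0.047 to 0.059. Nearest to Per2 was Foxo1, at 3.16, 2.83, 3.27, 2.38 and 4.22 FPKM (difference 0.052), followed by Ell2, Sorbs2, Sobp and Pknox2 at 0.054 to 0.064. With 5 points per gene and 10710 genes to choose from, close profiles are found readily, and no other member was among these 15.

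Where a member stood highest depended in part on the scaling of the libraries. FPKM divides by the library total, and the median gene lay above its mean over libraries by 0.06, 0.10 and 0.10 on the log2 scale in libraries 1 to 3 and at -0.16 and -0.10 in libraries 4 and 5. As deposited, 4 of the 9 members at 1 FPKM or more were highest in library 1, 2 in library 2 and 3 in library 5, against 21.2%, 23.2% and 7.68% of all genes tested. In library 4, 5 members were lowest, against 38.0% of all genes tested. Relative to the median gene, 4 members were highest in library 5, 2 in each of libraries 2 and 4 and 1 in library 1. Under the same scaling 18.8% of all genes tested were highest in library 5, 13.6% in library 2, 27.5% in library 4 and 13.1% in library 1. In library 3, 6 members were lowest, against 28.6% of all genes tested. Per3 in library 1, Arntl in library 2, Cry2 in library 2, and Per2, Clock and Tef in library 5 stayed highest under both scalings. Library 3 stayed lowest for Arntl, Per3 and Nr1d1, library 4 for Per2 and Cry2. After median-of-ratios scaling Nr1d1 was highest in library 4, at 66.1 against 65.7 scaled FPKM in library 1, and Dbp was highest in library 4 and lowest in library 2.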

How the data were processed

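RNA-seq of gastrocnemius from 5 samples of 1 group was analysed. Per the labels' protocols, RNA was extracted with Trizol from about 20 mg of tissue and poly-A RNA was selected. Per the submitters' processing notes, which give neither role nor order, the build mm10 and the tools HTSeq 0.6.1, STAR 2.5, TopHat, edgeR and DESeq2 are named. Annotation, strand setting and treatment of multi-mapping reads were not given in the sources used here. Values are deposited as FPKM, a unit read from the values themselves, which the authors computed from reads, a length per gene and library total. Columns of other samples numbered 0.

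Symbols and coordinates came from GENCODE M21 (GRCm38, the assembly named mm10), which matched 34490 of 35275 identifiers. Library totals were the commonest value that made low genes whole at annotated exon length. For other genes the shortest length making all libraries whole within 0.001 of a read was taken, so reads are the fewest possible. This worked for 20836 of 20840 genes above 0, and reads summed to 99.4% to 99.5% of the totals. Intervals are not given, and counting error does not include amplification.

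Variation was tested by chi-square on these reads (genes with a mean of at least 1 FPKM, and Npas2) and by limma 3.58.1 in R 4.3.3 on log2(FPKM + 1), as gene variance over its abundance trend (F with 4 and 3.93 degrees of freedom). Comparisons of protein sequences named in the design were not made. Pairs were tested by an exact sign-flip permutation over 32 patterns. Alternatives were pseudocounts of 0.1 and 5, median-of-ratios and TMM scaling, filters, voom weights and leaving out each library. Python 3.11.15, numpy 2.4.6, pandas 2.3.3, scipy 1.17.1 and matplotlib 3.10.9 were used.

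The members, lists and pairs were chosen with earlier results of these data known. Named genes were all members, every gene of both lists other than a few genes of the clock list that are not reported here or counted in it, and the 5 nearest profiles to Arntl, Dbp and Per2. The marker lists for fibroblasts and matrix, adipocytes, endothelium, erythroid, Schwann and tendon cells were also measured and had summed levels of 548 to 995, 206 to 514, 55.2 to 72.8, 305 to 877, 44.4 to 106 and 197 to 397 FPKM.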

Additional observations from a re-analysis of the deposited data

Results flagged for a closer look

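Among 50 sets of 5 values checked for a library far from the rest, 2 were marked, and chance marks about 1 in 20. Fbxw11 was at 10.6 FPKM in library 4, against 12.5 to 13.2 FPKM in the other libraries. Hk2 was at 51.0 FPKM in library 4, against 66.5 to 72.1 FPKM in the other libraries. Both genes belong to the added lists, and no member was marked. The gap to the nearest library was 0.714 of the whole range for Fbxw11 and 0.734 for Hk2, above the limit of 0.71. In library 4 the median gene lay at -0.16 on the log2 scale. After median-of-ratios scaling Fbxw11 was lowest in library 2, at 11.6 scaled FPKM, against 11.8 in library 4. Hk2 was then at 56.8 scaled FPKM in library 4, against 62.1 to 77.1 in the other libraries. The check was not repeated on scaled values, and the part of scaling in either mark was not tested.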

How the results depend on the processing

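No paired analysis was possible because the samples form 1 group. All 9 ratios between members kept their direction under pseudocounts of 0.1 and 5 and without any 1 library, and none could pass the threshold; without 1 library the smallest sizes were those of Dbp over Tef, at 0.035 to 0.23, and Arntl over Clock, at 0.058 to 0.19. The count of members beyond counting error was 10 under both scalings, 9 to 10 without 1 library and 9 with the recovered reads halved, an alternative added after the data were seen; Npas2 was the one lost. No member passed the test against the trend under any of the 12 alternatives, and the count over all genes was 0 to 4 without 1 library, with 4 reached without library 3, and 0 under the rest, voom weights among them. With a pseudocount of 5 the log2 SD was 0.13 for Arntl, 0.058 for Clock, 0.027 for Npas2, 0.13 for Per2 and 0.19 for Per3, and with 0.1 it was 0.49 for Npas2, since a pseudocount compresses low genes. For Cry2 it was 0.13 under median-of-ratios and under TMM scaling. Without 1 library it ranged from 0.16 to 0.31 for Per2, lowest without library 5, and from 0.19 to 0.40 for Per3, lowest without library 1. Under either scaling the lowest library was 3 for Clock, Nr1d2 and Tef and 2 for Dbp, and the highest was 4 for Nr1d1 and Dbp and 5 for Nr1d2. Leaving out a library does not change the order of the others. Depth limits Npas2, with 8 to 26 reads per library.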
